A study of Arabidopsis thaliana with 9 samples.

Results

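The 37 genes described here are the Arabidopsis thaliana nuclear genes for the outer parts of the photosynthetic machinery: the photosystem I antenna genes LHCA1 to LHCA4, the photosystem II antenna genes LHCB3 to LHCB7, 12 further genes of photosystem I (PSA), 10 further genes of photosystem II (PSB) and the 4 genes of the small subunit of Rubisco (RBCS). They were chosen by gene identifier from the 33602 genes of the deposited tables, and all 37 passed the filter on low values that left 18232 genes to test. RNA was sequenced from seedlings aged 9 d, grown on MS medium with 2% sucrose, in 3 groups of 3 libraries. The OE2 and OE1 groups are both labelled as overexpressing CsGSTF1, a glutathione S-transferase gene, and the series title places that transgene in the tt19-8 mutant. The tt19-8 group is labelled as a tt19 knock out. TT19 (AT5G17220) is the Arabidopsis glutathione S-transferase needed for anthocyanin to accumulate in the vacuole. The labels give neither the promoter of the transgene nor whether OE2 and OE1 are separate transformants, no wild type is analysed here, and CsGSTF1 itself is not analysed here because the tables list Arabidopsis identifiers. TT19 read 0.864, 0.674 and 0.876 FPKM in OE2, 0, 0.0769 and 0.0712 in OE1, and 0.113, 0.0399 and 0 in tt19-8 (replicates 1 to 3, as in every later list of values; FPKM is the fragment number scaled to transcript length and sequencing depth).

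In the thylakoid membrane, the LHCB and LHCA proteins bind chlorophyll and pass light energy to photosystem II and photosystem I. Photosystem II splits water with the help of its lumenal PSBO, PSBP and PSBQ proteins, and photosystem I hands electrons from plastocyanin to ferredoxin. Rubisco fixes carbon dioxide in the stroma. The catalytic core proteins are encoded by the chloroplast genome, whereas the subunits described here are made in the cytosol from nuclear transcripts and imported, and in leaves these transcripts are among the most abundant of all and are induced by light.

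The members were read at a high level in every library. Of the 37 members, 16 were among the 100 genes with the highest mean FPKM, and RBCS1A ranked 4 among all genes. Together the members held 5.88%, 5.0% and 6.63% of the FPKM total in the OE2 libraries, 5.92%, 4.92% and 6.78% in the OE1 libraries and 4.90%, 5.61% and 5.28% in the tt19-8 libraries, so that the groups overlapped. The lowest member was LHCB7, a rare antenna protein, with a mean of 8.46 FPKM. In bulk seedlings, fewer green cells and less RNA per green cell cannot be told apart.

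Sequencing depth is not given in the sources used here. Among single-exon genes of low FPKM, the values of the OE1 and tt19-8 libraries fell on steps that correspond to between 48320000 and 57300000 fragments per library, although only 50.1% to 55.2% of those values lay within 0.1 fragment of a whole number. At that depth LHCB7 corresponds to between 401 and 755 fragments per library, a counting error of 4.32% to 4.99% in OE1 and 3.64% to 4.99% in tt19-8, beside an SD between libraries of 9.2% of the mean in OE1 and 37.3% in tt19-8. In the OE2 libraries no such steps were clear and the depth is unknown. The FPKM totals were 867529 to 912535 in OE2, 1032370 to 1079857 in OE1 and 1056688 to 1096075 in tt19-8.

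2 features of the libraries touch every result on these genes. First, each OE2 library followed the OE1 library of the same number. For PSAF, the photosystem I subunit at which plastocyanin docks, OE2 over OE1 was 0.956 in each of the 3 pairs. RBCS1A gave ratios of 0.699, 0.713 and 0.690. Over the 37 members the highest of the 3 ratios exceeded the lowest by a median factor of 1.03, against 2.02 when the OE2 libraries were set against OE1 libraries of another number. The members shared this with the other genes, whose median factor was 1.04 over 18111 genes. In 703 single-exon genes with a mean of 10 to 50 fragments in OE1, the SD of the 3 same-numbered OE2 over OE1 ratios had a median of 16.0%, below the median counting error of the OE1 libraries alone (22.5%); for tt19-8 over OE1 it was 63.4% over 672 genes. In 367 genes with 50 to 100 fragments these values were 7.6% and 12.5% for OE2 over OE1. The OE2 values thus followed OE1 more closely than separate counting of fragments would be likely to give, and they are not shown to have been measured independently of OE1. How this came about was not tested. Every OE2 value, its SE and p, and each OE2 over OE1 ratio below carries this limit, and OE2 and OE1 are not counted as repeats of each other. The SE and p of OE1 carry it too wherever the OE2 libraries are in the same fit.

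**Figure D1:**
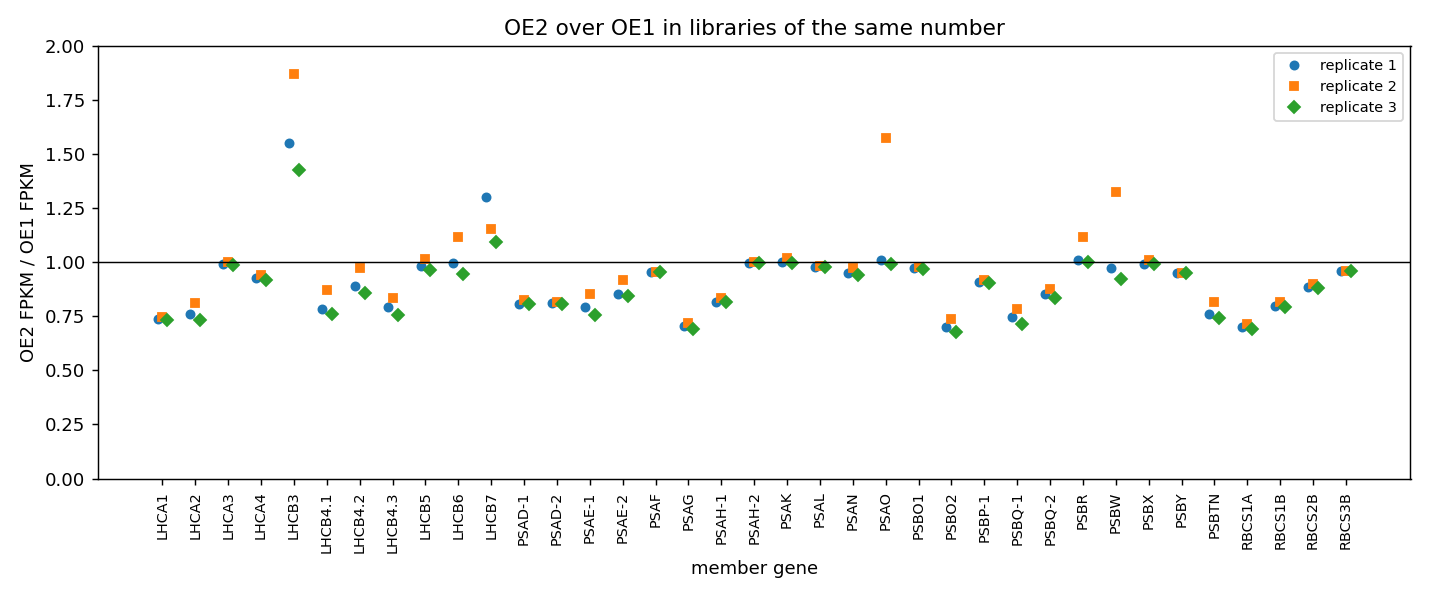
FPKM in OE2 divided by FPKM in OE1 for libraries of the same replicate number, on a linear axis from 0, for each of the 37 members; each point is 1 pair of libraries and the line marks a ratio of 1. The 3 points of most members lie on top of each other, LHCB3 lies above 1 in all 3 pairs, and PSAO and PSBW are pulled up in replicate 2 only.

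Second, tt19-8 replicate 3 stood apart from replicates 1 and 2. Its values lay below both of them in 19 members, above both in 11 and between them in 7, shares of 51.4%, 29.7% and 18.9% beside 47.2%, 30% and 22.8% of all genes tested. In 30 of the 37 members it lay within the range of the OE1 libraries, against 56.4% of all genes tested. The SD of the log2 ratio over the 37 members was 0.56 and 0.63 between tt19-8 replicate 3 and the other tt19-8 libraries, and 0.22, 0.26 and 0.22 between tt19-8 replicate 3 and the OE1 libraries. The library is kept under its label, and the counts of members that passed the test are given with and without it. Within OE1, replicate 2 was the lowest library in 32 members and replicate 3 the highest in 34, against 47.3% and 43.8% of all genes tested.

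**Figure D2:**
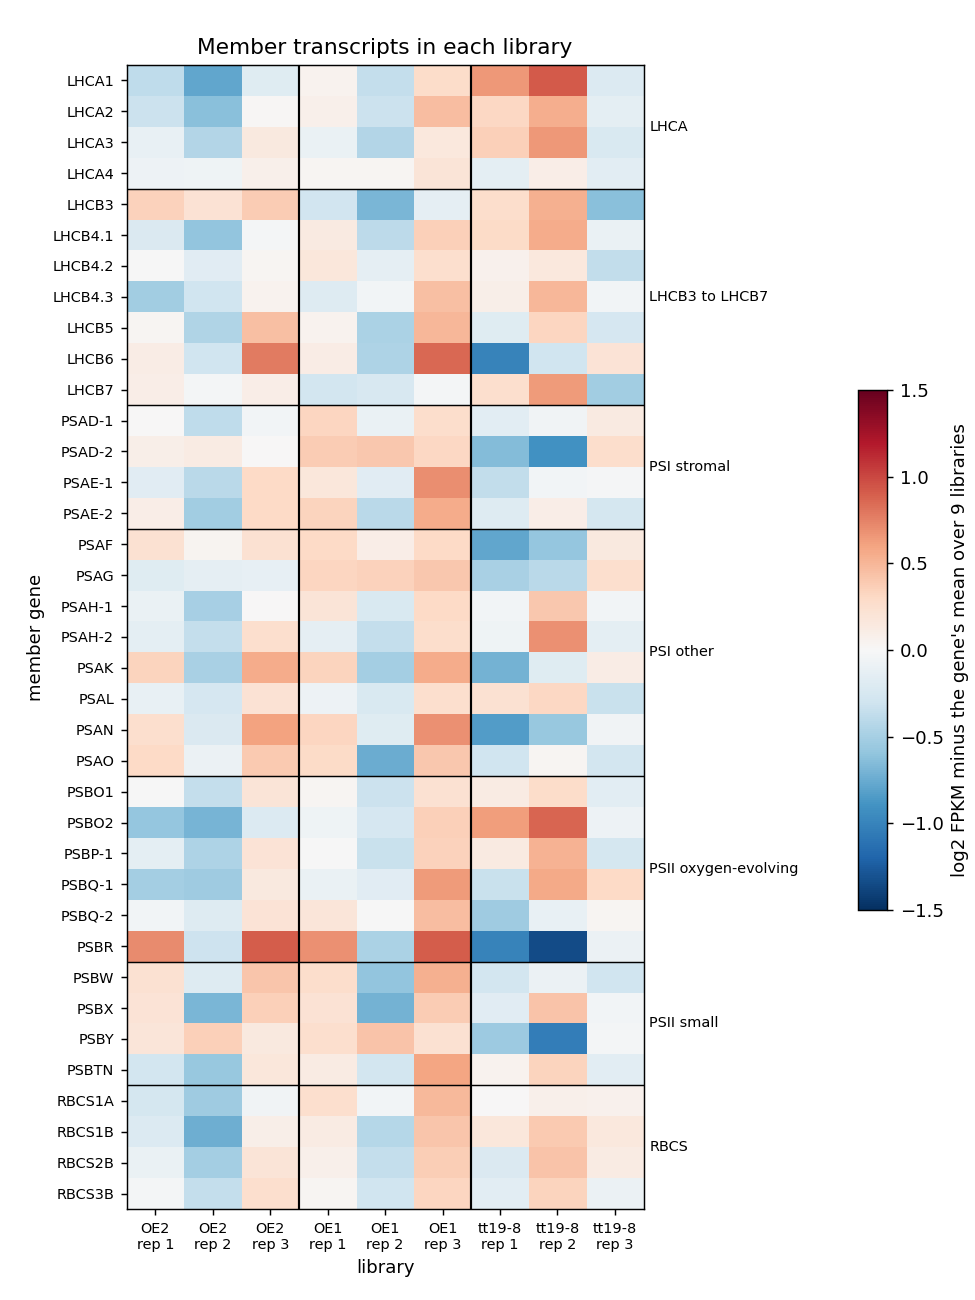
Heat map of the 37 members (rows, grouped by role) in the 9 libraries (columns), coloured by log2 FPKM minus the mean of that gene over the 9 libraries. In most members the OE2 columns rise and fall over the replicate numbers as the OE1 columns do. The level differs between the lines in some members, such as LHCB3, RBCS1A and PSAG. The column of tt19-8 replicate 3 differs from those of tt19-8 replicates 1 and 2. For example, it is higher in PSBR and PSAD-2 and lower in LHCB3 and LHCA1.

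The 250 bases before the annotated start of each member were read from the RefSeq TAIR10.1 genome, in which all 37 gene identifiers were found. Both strands were searched for the G-box CACGTG, which binds bZIP and bHLH factors of the light response such as HY5 and the PIFs, for the I-box core GATAAG and for CCAATC, a motif of GLK target promoters. The G-box was found before 10 of 37 members (27.0%) and before 6.5% of 27443 protein-coding nuclear genes. The I-box core was found before 9 members (24.3%) and 12.3% of genes, and CCAATC before 6 members (16.2%, 3 of them LHCA genes) and 10.2% of genes. A match is a description of the letters only. 4 of these stretches are printed, 5′ to 3′ on the strand of the gene, with the motif matches on either strand in capitals. PSBY is shown because it passed the test, PSBQ-1 and PSBQ-2 because the balance between these copies differed between groups, and RBCS2B because it holds more matches than any other RBCS gene. They lie at chr1:25395250-25395499 (minus strand), chr4:11334102-11334351 (plus), chr4:2673244-2673493 (minus) and chr5:15382072-15382321 (minus), in the order of the lines.
PSBY: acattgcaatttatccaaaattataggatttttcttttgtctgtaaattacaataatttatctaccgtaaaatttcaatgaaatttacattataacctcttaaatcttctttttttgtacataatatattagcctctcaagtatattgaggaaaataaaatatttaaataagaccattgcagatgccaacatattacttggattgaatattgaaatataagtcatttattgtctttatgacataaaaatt
PSBQ-1: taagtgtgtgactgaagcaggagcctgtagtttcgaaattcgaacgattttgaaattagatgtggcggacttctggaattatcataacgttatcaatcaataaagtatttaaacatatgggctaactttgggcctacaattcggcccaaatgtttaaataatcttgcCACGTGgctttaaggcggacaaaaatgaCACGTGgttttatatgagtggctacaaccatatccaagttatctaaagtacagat
PSBQ-2: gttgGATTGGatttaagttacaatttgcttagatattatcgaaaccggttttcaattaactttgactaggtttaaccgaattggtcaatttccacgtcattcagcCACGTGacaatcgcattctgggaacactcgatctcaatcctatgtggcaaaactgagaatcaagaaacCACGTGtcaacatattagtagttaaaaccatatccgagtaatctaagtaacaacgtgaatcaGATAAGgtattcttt
RBCS2B: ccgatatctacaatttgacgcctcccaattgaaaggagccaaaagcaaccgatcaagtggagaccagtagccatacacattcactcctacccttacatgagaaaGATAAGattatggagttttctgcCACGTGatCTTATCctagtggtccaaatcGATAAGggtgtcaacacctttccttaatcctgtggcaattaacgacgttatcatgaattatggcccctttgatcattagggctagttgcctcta
The PSBY stretch holds none of the 3 motifs. PSBQ-1 holds 2 G-boxes and PSBQ-2 holds 2 G-boxes, 1 I-box core and 1 CCAATC (as GATTGG). RBCS2B holds 1 G-box between I-box cores, of which there are 3.

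OE2 and OE1 were each compared with tt19-8 with limma on log2(FPKM + 1), with Benjamini-Hochberg adjustment over all 18232 genes and a threshold of 0.05, and each log2 change below is on that scale, with its standard error. The labels do not say whether the libraries of a group came from separate cultures, so the p-values measure the spread between these libraries only. Both comparisons use the same tt19-8 libraries. In OE2, 2 of 37 members passed the test, PSBO2 lower and PSBY higher, against 19% of all genes (4.5% higher and 14.5% lower). An unadjusted limma p under 0.05 was found in 6 members and in 6446 of the 18232 genes. The members' share was below that of all genes, a difference that was not tested, and the median log2 change over the members was -0.07, beside -0.18 over all genes tested. In OE1, 0 of 37 members passed in limma, with a lowest adjusted p of 0.18, against 0.0165% of all genes (0.00548% higher and 0.011% lower). Here 6 members and 3458 of the 18232 genes had an unadjusted limma p under 0.05. The members' median in OE1 was 0.07, beside -0.11 over all genes. The 3 libraries of OE2 lay above all of tt19-8 in 1 member and below all of them in 3, against 9.35% and 27.7% of all genes. Those of OE1 lay above all of tt19-8 in 3 members (PSAD-2, PSAG and PSBY) and below in 0, against 4.14% and 13.3%.

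Without tt19-8 replicate 3, more members passed in limma in both lines, as did more genes of any kind. In OE2, 5 members were then higher (PSAD-2, PSAF, PSBY, PSBR and PSAN) and 2 lower (PSBO2 and LHCA1), against 32.8% of all genes (7.78% higher and 25% lower). In OE1, 4 were higher (PSAD-2, PSAF, PSAG and PSBY) and 2 lower (LHCB7 and LHCB3), against 17.2% of all genes (4.28% higher and 12.9% lower). With only the 2 groups in the fit as well, an alternative chosen after seeing the data, 5 were higher and 5 lower in OE2 (33.3% of all genes, 8.51% higher and 24.8% lower) and 6 higher and 1 lower in OE1 (9.09%, 2.84% higher and 6.25% lower). In OE2 0 members passed in limma without OE2 replicate 1, OE2 replicate 3, tt19-8 replicate 1 or tt19-8 replicate 2. PSBR alone passed without OE2 replicate 2, PSBO2 alone without OE1 replicate 1 or 3, and 3 members without OE1 replicate 2. Scaling mattered as well. Over all genes the median change in OE2 was -0.18 as deposited, -0.02 after median-ratio scaling and 0.04 with equal totals, and that of the members -0.07, 0.11 and 0.18. The genes past the threshold in OE2 divided into 821 higher and 2646 lower as deposited, 1237 higher and 1081 lower after median-ratio scaling and 1396 higher and 522 lower with equal totals. Among members, PSBY alone passed after median-ratio scaling, and PSAF and PSBY, both higher, with equal totals. The sign of the log2 change was kept in every alternative in 22 members in OE2 and in 20 in OE1. Only another pseudocount, a scaling or leaving out a library of the groups compared can move a log2 change. The other alternatives keep its sign by design.

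**Figure D3:**
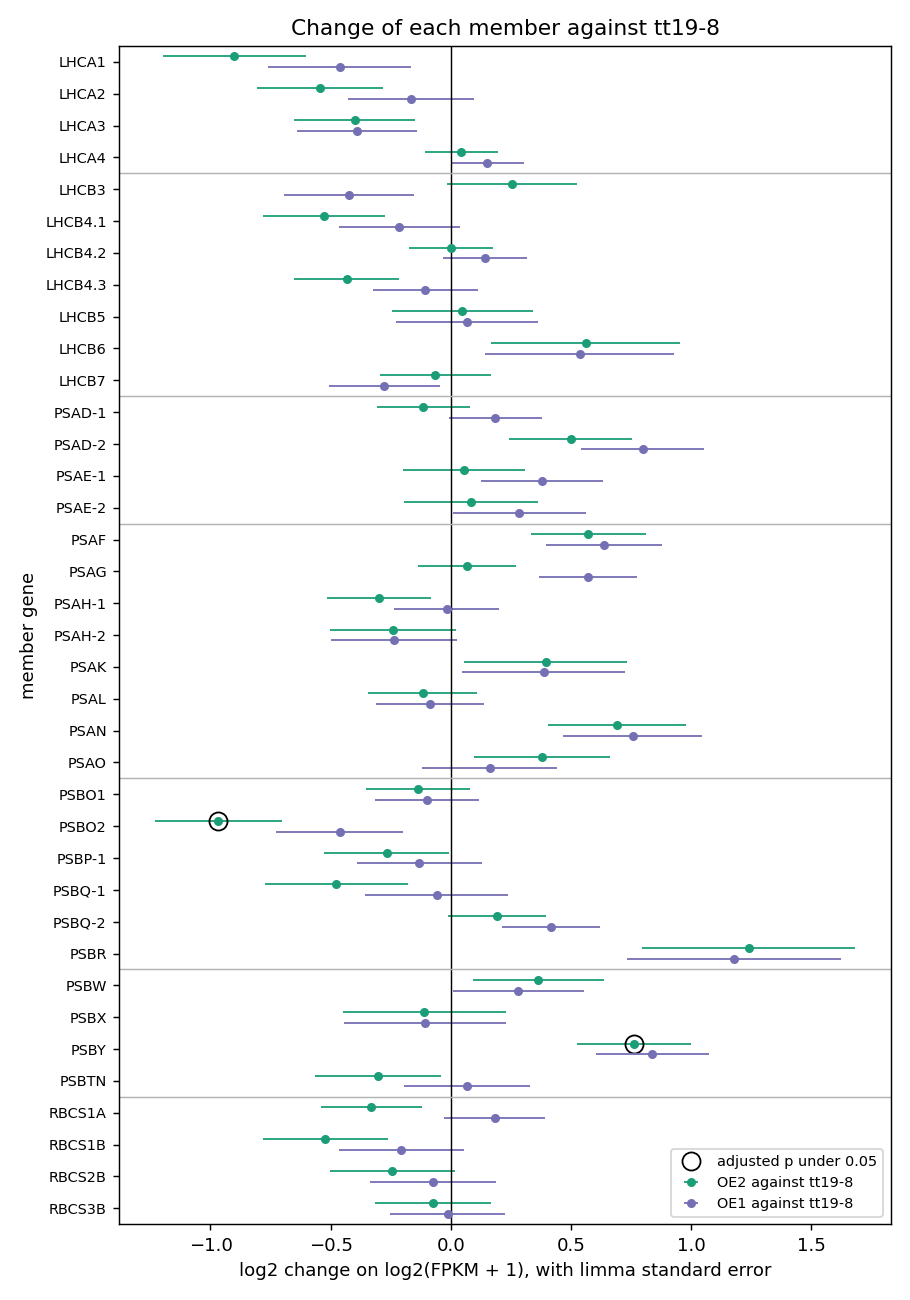
Log2 change of each member in OE2 and in OE1, each against tt19-8, on the log2(FPKM + 1) scale, with the limma standard error as bars; circles mark an adjusted p under 0.05 and grey lines separate the role groups. PSBO2 and PSBY in OE2 are circled, at -0.97 and 0.76, and PSBR lies furthest right with the widest bars.

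Among the photosystem I antenna genes, the 4 LHCA proteins that form the belt around the photosystem I core, 0 passed in OE2 and 0 in OE1, with 1 and 0 at an unadjusted p under 0.05 in limma. Their summed FPKM was 3086, 2585 and 3673 in OE2, 3892, 3125 and 4733 in OE1 and 4890, 5812 and 3327 in tt19-8. The low tt19-8 value is that of replicate 3, which puts it inside the range of both lines. LHCA1 (AT3G54890, chr3:20339504-20341176) read 1052, 800 and 1214 FPKM in OE2, 1428, 1073 and 1656 in OE1, and 2160, 2588 and 1189 in tt19-8. Every OE2 library was below tt19-8 replicates 1 and 2, and OE2 replicate 3 was above tt19-8 replicate 3. The log2 change was -0.90 ± 0.30 in OE2 (limma adjusted p = 0.058) and -0.46 ± 0.30 in OE1 (adjusted p = 0.40). Without tt19-8 replicate 3 the change in OE2 was -1.23 (limma adjusted p = 0.0069), and that in OE1 was -0.79 (adjusted p = 0.055). Over the 18 alternatives the limma adjusted p of LHCA1 in OE2 reached 0.215, and 2 of them put it past the threshold. LHCA2 had the highest mean of the group, at 1193, 970 and 1511 FPKM in OE2, 1569, 1193 and 2059 in OE1, and 1856, 2180 and 1344 in tt19-8, and the groups overlapped. LHCA4, the partner of LHCA1 in the antenna dimer, read 677, 685 and 753 FPKM in OE2, 729, 729 and 820 in OE1, and 647, 766 and 642 in tt19-8. Its groups overlapped and its log2 changes were 0.04 ± 0.15 in OE2 and 0.15 ± 0.15 in OE1. LHCA3 had log2 changes of -0.40 in OE2 and -0.39 in OE1, neither past the limma threshold.

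The LHCB3 to LHCB7 group comprises LHCB3 of the major antenna trimers, the minor antennae LHCB4 (CP29), LHCB5 (CP26) and LHCB6 (CP24), and LHCB7. In limma 0 of these 7 genes passed in OE2 or in OE1, and in neither line did 1 have an unadjusted p under 0.05. LHCB4.1 had the highest mean of them and the lowest log2 change in OE2, with 1213, 931 and 1379 FPKM in OE2, 1547, 1069 and 1809 in OE1, and 1722, 2067 and 1311 in tt19-8. OE2 overlapped tt19-8 through tt19-8 replicate 3 only, while OE1 also overlapped tt19-8 replicate 1. The change was -0.53 ± 0.25 in OE2 (limma adjusted p = 0.16). LHCB6 read 239, 180 and 378 FPKM in OE2, 239, 161 and 400 in OE1, and 110, 179 and 254 in tt19-8. In both lines replicate 3 was the highest and replicate 2 the lowest, and the changes of 0.56 ± 0.39 in OE2 and 0.54 ± 0.39 in OE1 did not pass (limma adjusted p = 0.33 and 0.45). The remaining LHCB4 copies and LHCB5 had changes between -0.43 and 0.14 in both lines, and LHCB7 had -0.06 in OE2 and -0.28 in OE1. Without tt19-8 replicate 3 the OE1 change of LHCB7 was -0.56 and passed (limma adjusted p = 0.041).

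LHCB3 (AT5G54270), named after its values were seen, was the member with the largest log2 difference between OE2 and OE1. It read 222, 203 and 227 FPKM in OE2, 143, 108 and 159 in OE1, and 209, 253 and 113 in tt19-8. Every OE2 library was above every OE1 library, while tt19-8 overlapped both. The log2 changes were 0.25 ± 0.27 in OE2 and -0.42 ± 0.27 in OE1, neither past the limma threshold. Without tt19-8 replicate 3 the OE2 change turned to -0.08 (limma adjusted p = 0.75), and the OE1 change was -0.76 and passed (adjusted p = 0.027).

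Of the stromal photosystem I subunits, PSAD forms the docking site of ferredoxin with PSAE, and each is encoded by a pair of genes. In OE2 and in OE1 0 of these 4 genes passed in limma, with 0 and 1 at an unadjusted p under 0.05. PSAD-1, the main copy, read 2771, 2110 and 2667 FPKM in OE2, 3435, 2562 and 3306 in OE1, and 2471, 2647 and 3024 in tt19-8, with overlap of all groups. PSAD-2 (AT1G03130, chr1:753307-754262) read 319, 327 and 302 FPKM in OE2, 393, 400 and 374 in OE1, and 191, 160 and 362 in tt19-8. All OE1 libraries were above all tt19-8 libraries, and tt19-8 replicate 3 stood above the OE2 libraries. The log2 change of PSAD-2 was 0.50 ± 0.26 in OE2 (limma adjusted p = 0.19) and 0.80 ± 0.26 in OE1 (adjusted p = 0.18). Without tt19-8 replicate 3 it passed in both lines, at 0.85 (adjusted p = 0.0026) and 1.15 (adjusted p = 0.0060). Over the 18 alternatives the limma adjusted p of PSAD-2 reached 0.54 in OE2 and 0.53 in OE1. PSAE-1 and PSAE-2 had changes of 0.05 and 0.08 in OE2 and of 0.38 and 0.29 in OE1.

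The 8 other photosystem I genes encode the plastocyanin-side subunits PSAF and PSAN, the antenna-side subunits PSAG and PSAK, and PSAH, PSAL and PSAO, where the mobile photosystem II antenna binds. Their summed FPKM averaged 12167 ± 1199 in OE2, 13322 ± 1379 in OE1 and 10233 ± 1767 in tt19-8 (SD, n = 3 each). The sums overlapped, with 12088 in tt19-8 replicate 3 above 10859 in OE2 replicate 2 and 11817 in OE1 replicate 2. PSAF held much of each sum. In limma 0 passed in OE2 and 0 in OE1, with 2 and 3 at an unadjusted p under 0.05. PSAF (AT1G31330, chr1:11214676-11216141), the highest of them, read 7257, 6342 and 7259 FPKM in OE2, 7595, 6633 and 7597 in OE1, and 3598, 4143 and 6811 in tt19-8. All libraries of both lines were above tt19-8 replicates 1 and 2, but replicate 2 of each line was below tt19-8 replicate 3. The log2 change was 0.57 ± 0.24 in OE2 (limma adjusted p = 0.12) and 0.64 ± 0.24 in OE1 (adjusted p = 0.21). Without tt19-8 replicate 3 it was 0.85 (limma adjusted p = 0.0053) and 0.91 (adjusted p = 0.010). Over the 18 alternatives the limma adjusted p of PSAF reached 0.33 in OE2 and 0.55 in OE1. PSAN read 310, 224 and 397 FPKM in OE2, 326, 230 and 421 in OE1, and 146, 176 and 252 in tt19-8. Its pattern was that of PSAF, with overlap through replicate 2 of each line and tt19-8 replicate 3, and its change was 0.69 ± 0.29 in OE2 and 0.76 ± 0.29 in OE1 (limma adjusted p = 0.11 and 0.21). Without tt19-8 replicate 3 the OE2 change of PSAN was 0.91 and passed (limma adjusted p = 0.048). The OE1 change was then 0.97 and did not pass (adjusted p = 0.058). Over the 18 alternatives the limma adjusted p of PSAN in OE2 reached 0.31, and 3 of them left it past the threshold. PSAG read 1402, 1451 and 1461 FPKM in OE2, 1989, 2021 and 2107 in OE1, and 1134, 1202 and 1894 in tt19-8. OE1 was above every library of the other groups, with a change of 0.57 ± 0.20 (limma adjusted p = 0.20; 0.0080 without tt19-8 replicate 3), and OE2 was not, with 0.07 ± 0.20 (adjusted p = 0.84). PSAH-1 had the lowest log2 change of the group in OE2, -0.30 ± 0.22, with 1022, 776 and 1101 FPKM in OE2, 1250, 930 and 1351 in OE1, and 1059, 1449 and 1062 in tt19-8. PSAH-2, PSAK, PSAL and PSAO had changes between -0.24 and 0.40 in both lines.

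The photosystem II subunits around the water-splitting site gave the one member that fell. PSBO2 (AT3G50820, chr3:18890874-18892508), the minor of 2 genes for the manganese-stabilising protein, read 503, 465 and 651 FPKM in OE2, 719, 632 and 964 in OE1, and 1163, 1377 and 715 in tt19-8. All OE2 libraries were below all tt19-8 libraries, by a small gap at replicate 3, while OE1 lay between and overlapped both. The means were 540 ± 98.3 FPKM in OE2, 772 ± 172 in OE1, and 1085 ± 338 in tt19-8 (SD, n = 3 each). PSBO2 fell by 0.97 on the log2 scale in OE2 (SE 0.26, limma adjusted p = 0.032) and did not pass in OE1, with -0.46 ± 0.26 (adjusted p = 0.35). Its adjusted p in OE2 was between 0.0031 and 0.13 over the 18 alternatives tried, 9 of which left it past the threshold; it did not pass without the filter on low values, after either scaling, with the replicate block over all libraries, without any 1 of the OE2 libraries or without tt19-8 replicate 1 or 2. PSBO1, the main copy, read 1977, 1551 and 2266 FPKM in OE2, 2029, 1585 and 2334 in OE1, and 2162, 2397 and 1780 in tt19-8. The groups overlapped, with log2 changes of -0.14 ± 0.22 in OE2 and -0.10 ± 0.22 in OE1.

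PSBR (AT1G79040), a small lumenal-side protein needed for stable binding of PSBP, had the largest log2 change of all members in both lines and did not pass. It read 1054, 520 and 1215 FPKM in OE2, 1043, 465 and 1212 in OE1, and 323, 255 and 611 in tt19-8. Replicates 1 and 3 of both lines were above every tt19-8 library, and replicate 2 of both lines was below tt19-8 replicate 3. The changes were 1.24 ± 0.45 in OE2 (limma adjusted p = 0.075) and 1.18 ± 0.45 in OE1 (adjusted p = 0.21). Without tt19-8 replicate 3 the OE2 change was 1.60 and passed (limma adjusted p = 0.032). The OE1 change was then 1.54, close to that of OE2, and did not pass (adjusted p = 0.056). Over the 18 alternatives the limma adjusted p of PSBR in OE2 reached 0.27, and 6 of them left it past the threshold. PSBQ-1 read 283, 280 and 447 FPKM in OE2, 378, 358 and 627 in OE1, and 321, 601 and 497 in tt19-8. PSBQ-2 read 676, 609 and 808 FPKM in OE2, 793, 695 and 966 in OE1, and 484, 647 and 711 in tt19-8. Groups overlapped in both PSBQ genes, which encode an extrinsic protein of the water-splitting complex, and their changes were of opposite sign in OE2, at -0.48 ± 0.30 and 0.19 ± 0.20. PSBP-1 had log2 changes of -0.27 in OE2 and -0.13 in OE1, neither past the limma threshold.

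PSBY (AT1G67740, chr1:25394031-25395249), a small membrane protein beside cytochrome b559, was the one member that rose. It read 1601, 1808 and 1568 FPKM in OE2, 1686, 1904 and 1653 in OE1, and 966, 690 and 1388 in tt19-8. Every library of both lines was above every tt19-8 library, of which replicate 3 was the nearest. The means were 1659 ± 130 FPKM in OE2, 1748 ± 136 in OE1, and 1015 ± 351 in tt19-8 (SD, n = 3 each). PSBY rose in OE2 by 0.76 ± 0.24 on the log2 scale (limma adjusted p = 0.047), and the change of 0.84 ± 0.24 in OE1 did not pass (adjusted p = 0.18). The log2 difference of OE2 from OE1 was -0.08 ± 0.24 (limma adjusted p = 1). The adjusted p in OE2 was between 0.0045 and 0.15 over the 18 alternatives, 7 of which left PSBY past the threshold; it did not pass without the filter, with only the 2 groups compared, with either replicate block, or without any 1 of the OE2 libraries, OE1 replicate 1 or 3, or tt19-8 replicate 1 or 2. The other small photosystem II genes, PSBW, PSBX and PSBTN, did not pass in either line. PSBTN read 814, 662 and 1100 FPKM in OE2, 1068, 810 and 1480 in OE1, and 1019, 1238 and 881 in tt19-8, with overlap. The summed FPKM of the 4 genes was 3420, 3090 and 3796 in OE2, 3774, 3261 and 4304 in OE1 and 2736, 2963 and 3060 in tt19-8. This sum was above every tt19-8 library in every library of both lines, by a small gap between OE2 replicate 2 and tt19-8 replicate 3. PSBY, which had passed by itself, held much of it. PSBW, PSBX and PSBTN each overlapped tt19-8 in both lines, with OE2 changes of 0.36, -0.11 and -0.30.

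**Figure D4:**
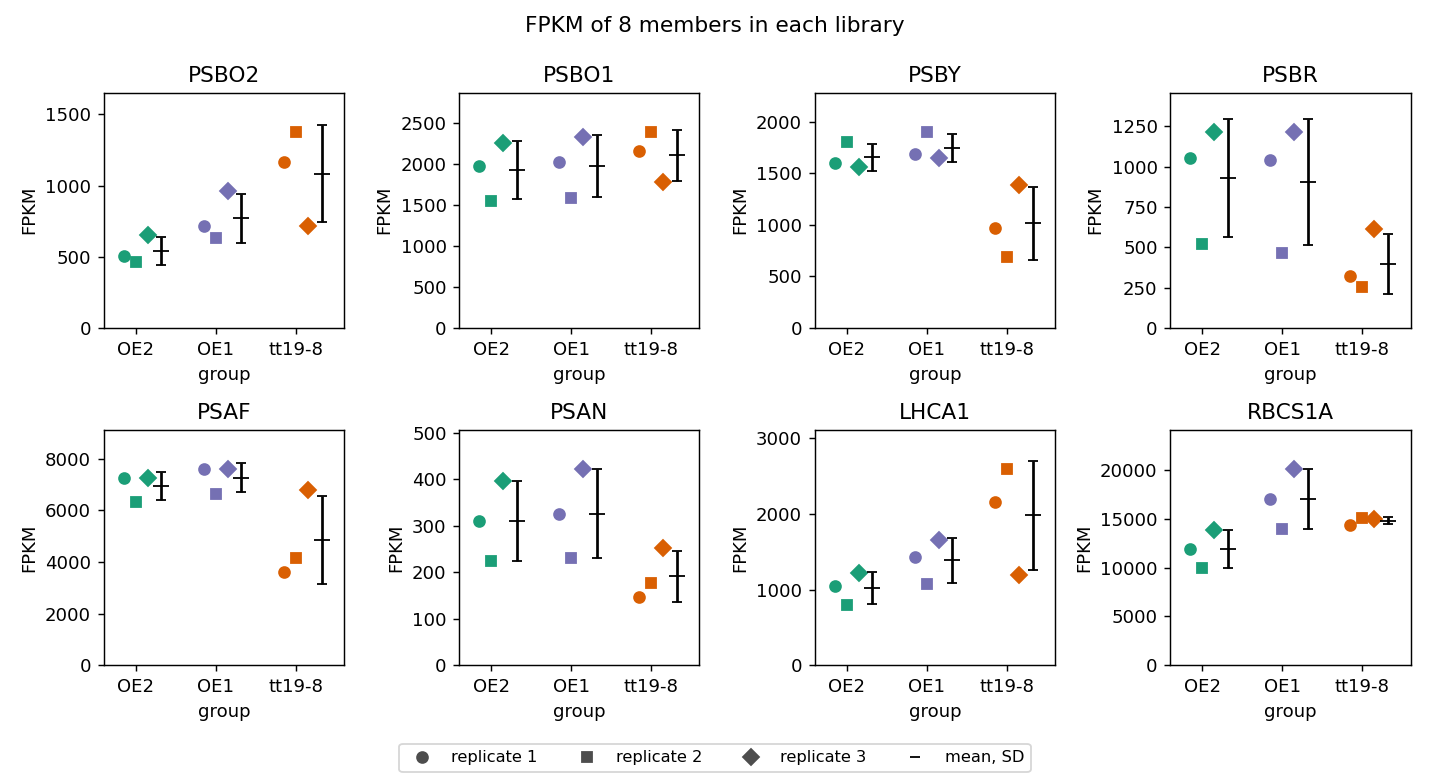
FPKM of 8 members in each library on linear axes from 0, with the mean and SD of the 3 libraries as a bar beside them; the symbol gives the replicate number. PSBO2 is below and PSBY above tt19-8 in all OE2 libraries, PSBO1 overlaps, and tt19-8 replicate 3 is the tt19-8 library nearest to OE2 in PSBO2, PSBY, PSBR, PSAF, PSAN and LHCA1.

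The 4 RBCS genes encode the small subunit of Rubisco. In limma 0 passed in OE2 and 0 in OE1, and in neither line did 1 have an unadjusted p under 0.05. RBCS1A (AT1G67090, chr1:25048158-25049667) read 11896, 9907 and 13837 FPKM in OE2, 17020, 13893 and 20050 in OE1, and 14396, 15073 and 14924 in tt19-8. As deposited, the tt19-8 libraries lay close together, all OE2 libraries were below them and OE1 lay on both sides. The log2 change was -0.33 ± 0.21 in OE2 (limma adjusted p = 0.28) and 0.18 ± 0.21 in OE1 (adjusted p = 0.64). RBCS1B, RBCS2B and RBCS3B stand side by side on the minus strand of chr5:15376988-15385320. RBCS1B read 1254, 870 and 1528 FPKM in OE2, 1571, 1069 and 1924 in OE1, and 1620, 1897 and 1611 in tt19-8. As deposited, OE2 was again below every tt19-8 library, with a change of -0.52 ± 0.26 (limma adjusted p = 0.18), and OE1 overlapped. RBCS2B read 2599, 1961 and 3182 FPKM in OE2, 2936, 2176 and 3610 in OE1, and 2387, 3733 and 3021 in tt19-8. RBCS3B read 5460, 4343 and 6660 FPKM in OE2, 5700, 4527 and 6957 in OE1, and 4992, 7036 and 5241 in tt19-8. Both overlapped in all groups, with changes between -0.24 and -0.01. Of the 50-base stretches within the exons of RBCS1B, RBCS2B and RBCS3B, 12%, 16.9% and 16.5% also occur exactly in another copy. Reads could therefore be split between these copies in ways that are not recorded. RBCS1A shares none of its stretches within exons, and stretches across exon junctions were not compared.

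The share of a copy in the summed FPKM of its family is a ratio within a library and does not depend on scaling between libraries. With 3 libraries against 3 an exact permutation test cannot go below p = 0.10, so overlap of the groups is given in place of a test. A lack of overlap is common in these data. In FPKM it was seen in 37.1% of all genes for OE2 against tt19-8 and in 17.5% for OE1 against tt19-8. Shares were not computed for families outside the members, so no share over other families can be set beside these. PSBO2 held 20.3%, 23.1% and 22.3% of PSBO in OE2, 26.2%, 28.5% and 29.2% in OE1 and 35.0%, 36.5% and 28.6% in tt19-8. The OE2 shares were below those of both other groups, and OE1 overlapped tt19-8 through replicate 3. PSBQ-1 held 29.5%, 31.5% and 35.6% of PSBQ in OE2, 32.3%, 34.0% and 39.4% in OE1 and 39.9%, 48.2% and 41.1% in tt19-8. Both lines were below every tt19-8 library, replicate 3 included, although neither PSBQ gene passed the test by itself. In the LHCB4 family, LHCB4.2 held 8.09%, 9.11% and 7.30% in OE2, 7.21%, 8.23% and 6.53% in OE1 and 6.08%, 5.43% and 5.90% in tt19-8. Both lines were above tt19-8 for this copy and below it for LHCB4.1, which held 85.9% to 88.5% in OE2, 86.5% to 89.4% in OE1 and 89.7% to 90.5% in tt19-8. LHCB4.3 overlapped. None of the 50-base stretches within the exons of the PSBO, PSBQ or LHCB4 genes occurs exactly in another copy of the family. Stretches across exon junctions were not compared.

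In the RBCS family, RBCS1A held 56.1%, 58.0% and 54.9% in OE2, 62.5%, 64.1% and 61.6% in OE1 and 61.5%, 54.3% and 60.2% in tt19-8. OE1 was above both other groups, whereas OE2 overlapped tt19-8 through its replicate 2. RBCS3B held 25.7%, 25.4% and 26.4% in OE2, 20.9%, 20.9% and 21.4% in OE1 and 21.3%, 25.4% and 21.1% in tt19-8, so that OE2 was above both other groups, by a narrow gap at tt19-8 replicate 2. RBCS1B held 5.10% to 6.06% in OE2, 4.94% to 5.91% in OE1 and 6.50% to 6.92% in tt19-8, below tt19-8 in both lines. The RBCS1B and RBCS3B shares carry the uncertainty of their shared stretches. The PSAD, PSAE and PSAH pairs overlapped in all 3 groups.

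**Figure D5:**
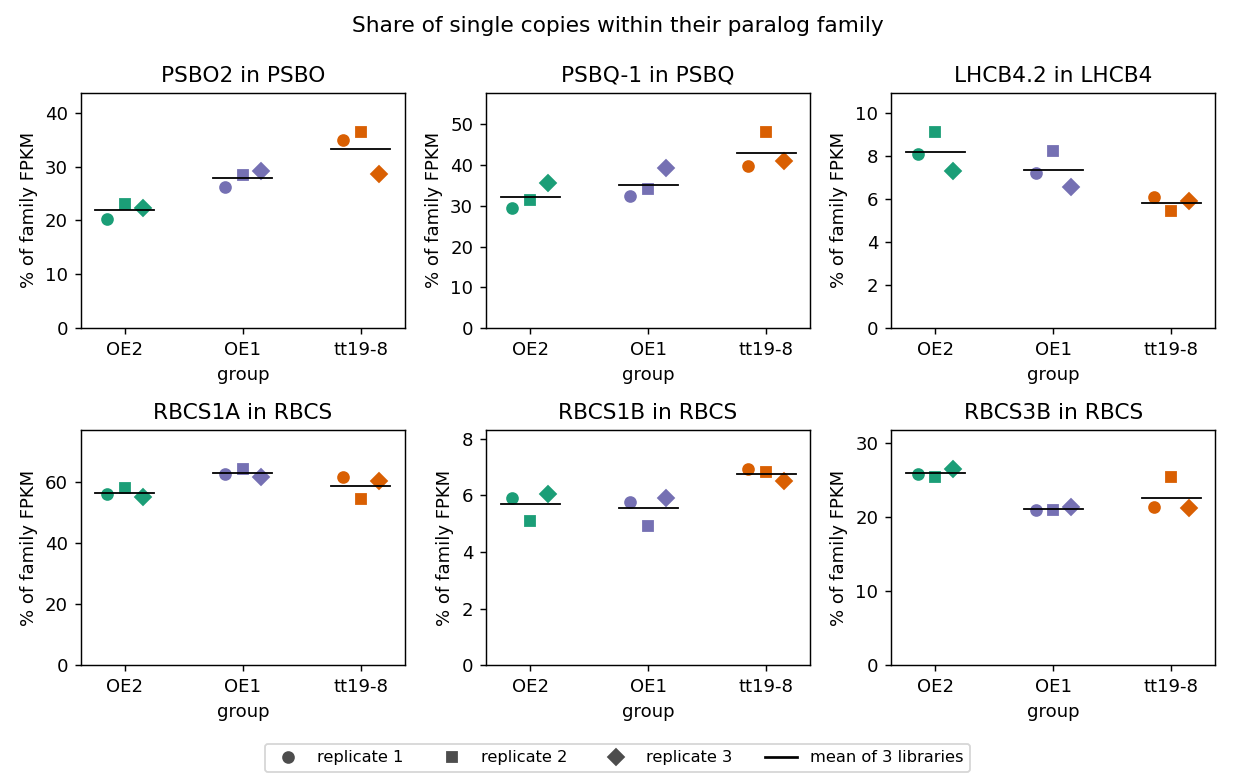
Share of 6 single copies in the summed FPKM of their family, in percent on linear axes from 0, for each library; the symbol gives the replicate number and the line the mean of 3 libraries. OE2 lies below tt19-8 for PSBO2, PSBQ-1 and RBCS1B and above it for LHCB4.2 and RBCS3B, and the OE1 and OE2 points of the same number keep the same order for each copy except PSBO2.

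OE2 was also compared with OE1. In 27 of 37 members (73.0%) OE2 was below OE1 in all 3 same-numbered pairs, against 65.2% of all genes. In 20 members all 3 ratios were more than 5% below 1, in 9 all lay within 5% of it, and in 2, LHCB3 and LHCB7, all were more than 5% above it, against 46.3%, 18.4% and 13.9% of 18111 genes. LHCB3 gave OE2 over OE1 ratios of 1.55, 1.87 and 1.43, and LHCB7 of 1.3, 1.16 and 1.09. The lowest ratio of any member was 0.675, in PSBO2. Without regard to the numbers, 0 of 37 members passed in limma, against 1.43% of all genes (1.39% higher and 0.0329% lower). An unadjusted limma p under 0.05 was found in 3 members (LHCB3, PSAG and RBCS1A) and in 2138 of 18232 genes. The largest changes were 0.68 ± 0.27 for LHCB3 and -0.51 ± 0.21 for RBCS1A (limma adjusted p = 0.34 and 0.35). The 3 libraries of OE2 lay above all of OE1 in 2 members and below all of OE1 in 3, against 7.04% and 14.7% of all genes. With the replicate number as a block and only these groups in the fit, 1 member was higher (LHCB3, 0.68, limma adjusted p = 0.015) and 25 were lower, against 66.5% of all genes (11.9% higher and 54.6% lower). The median log2 change of the members in OE2 against OE1 was -0.14 as deposited, -0.07 after median-ratio scaling and 0.11 with equal totals, so its sign depended on the scaling.

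The other genes of the pathway were read from the same fit. Over all genes tested, 4.5% were higher and 14.5% lower in OE2, with a median of -0.18. The counts and medians of the lists below stand beside these values, and no list was tested as a set. Of the 8 LHCB1 and LHCB2 genes of the major antenna, 2 rose in OE2: LHCB1.1 by 1.23 ± 0.19 and LHCB2.3 by 1.34 ± 0.28 on the log2 scale (limma adjusted p = 0.0058 and 0.013), with a list median of 0.46. LHCB2.3 did not pass without OE2 replicate 3 or tt19-8 replicate 1 or 2, with adjusted p of up to 0.061. LHCB1.1 read 102, 117 and 122 FPKM in OE2, 38.7, 43.9 and 67.3 in OE1, and 46.9, 48.6 and 47.5 in tt19-8. OE2 stood above both other groups, which overlapped. LHCB1.1 has near-identical neighbouring copies, so the split of its reads is uncertain. LHCB2.3 read 23.7, 18.6 and 32.8 FPKM in OE2, 23.5, 18.0 and 33.0 in OE1, and 7.32, 7.86 and 12.8 in tt19-8, above tt19-8 in every library of both lines; its change of 1.32 ± 0.28 in OE1 did not pass (limma adjusted p = 0.17). Among LHCA5, LHCA6 and PSBS, the last needed to dissipate excess light energy, 0 of 3 passed in limma, with 0 at an unadjusted p under 0.05.

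Of 10 nuclear genes for electron carriers and ATP synthase, 0 passed in OE2 and 1 had an unadjusted p under 0.05: LFNR1, which encodes the ferredoxin-NADP reductase, at -0.73 ± 0.24 (limma adjusted p = 0.058). The list median was -0.07. Of 12 Calvin cycle genes, 0 rose and 2 fell in OE2, with a list median of -0.30. TKL1, a transketolase gene, read 649, 774 and 799 FPKM in OE2, 961, 1156 and 1206 in OE1, and 1741, 1904 and 1371 in tt19-8. Both lines were below every tt19-8 library, and TKL1 fell by 1.17 in OE2 (SE 0.18, limma adjusted p = 0.0059). PGK1, a phosphoglycerate kinase gene, fell by 0.76 in OE2 (SE 0.19, limma adjusted p = 0.026). It did not pass after median-ratio scaling, with equal totals, with the replicate block over 2 groups, without any 1 of the OE2 libraries or without tt19-8 replicate 1 or 2, with adjusted p of up to 0.11.

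Of 13 chlorophyll synthesis genes, 12 were tested, with PORA below the filter. In OE2, 2 rose and 0 fell, with a list median of -0.14. DVR, the divinyl reductase, read 17.9, 19.6 and 16.5 FPKM in OE2, 3.91, 3.21 and 5.31 in OE1, and 3.43, 4.0 and 4.29 in tt19-8. It rose in OE2 by 1.95 ± 0.18 (limma adjusted p = 0.00047), while OE1 overlapped tt19-8. GUN4, an activator of magnesium chelatase, read 78.2, 83.3 and 74.4 FPKM in OE2, 80.6, 86.4 and 78.6 in OE1, and 35.7, 46.1 and 64.3 in tt19-8. Both lines were above tt19-8, with changes of 0.72 ± 0.19 in OE2 (limma adjusted p = 0.030) and 0.78 ± 0.19 in OE1 (adjusted p = 0.17). In OE2 it did not pass with the replicate block over 2 groups, without any 1 of the OE2 libraries or without tt19-8 replicate 1 or 2, with adjusted p of up to 0.098.

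Of 12 regulators of photosynthesis genes, 0 passed in OE2, with 2 at an unadjusted p under 0.05 in limma and a median of -0.04. GLK1, an activator of antenna and chlorophyll genes, read 464, 421 and 496 FPKM in OE2, 518, 470 and 553 in OE1, and 605, 383 and 472 in tt19-8. GLK2, its close relative, read 41.3, 24.8 and 45.9 FPKM in OE2, 46.5, 25.9 and 52.9 in OE1, and 36.5, 26.2 and 29.5 in tt19-8. HY5, a bZIP activator of the light response, read 7.76, 7.58 and 10.2 FPKM in OE2, 4.69, 3.48 and 8.32 in OE1, and 7.51, 9.33 and 3.45 in tt19-8. Groups overlapped in all 3 genes, and the changes in OE2 were -0.06 ± 0.19, 0.24 ± 0.29 and 0.37 ± 0.33 (limma adjusted p = 0.85, 0.58 and 0.46). The largest change of the list in OE2 was 0.65 ± 0.24 for SIG5, a sigma factor of the chloroplast polymerase (limma adjusted p = 0.084). In OE1, 0 genes of any of these 6 lists passed in limma, with at most 1 per list at an unadjusted p under 0.05.

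Markers of other seedling tissues moved between the libraries as well. The summed FPKM of 12 root and root hair markers was 640, 826 and 445 in OE2, 788, 1022 and 550 in OE1 and 622, 444 and 1071 in tt19-8. The highest sums of their groups were those of OE2 replicate 2, OE1 replicate 2 and tt19-8 replicate 3. Without PRP3, which held much of these sums, they were 413, 402 and 298 in OE2, 504, 488 and 366 in OE1 and 409, 317 and 458 in tt19-8, and replicate 1 was then the highest in both lines. Of the 11 tested, 0 rose and 3 fell in OE2 (EXPA7, COBL9 and RSL4), against 4.5% and 14.5% of all genes. In OE1 0 passed in limma, with 4 at an unadjusted p under 0.05. WOX5 was below the filter. The summed FPKM of 7 seed storage genes was 13.7, 63.5 and 14.6 in OE2, 9.27, 65.0 and 2.3 in OE1 and 91.7, 575 and 111 in tt19-8. Both lines lay below every tt19-8 library. CRU2 was listed at 0 in every OE1 library and also in tt19-8 replicates 1 and 3. Of these 7, 3 were tested and 0 passed in limma in either line, with 2 at an unadjusted p under 0.05 in each. The part of either set in the values of the members was not tested.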

How the data were processed

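Libraries of seedling RNA were prepared by Illumina protocols, per the labels' protocols. The deposited tables give FPKM per gene and library, made by the authors with HISAT 0.1.6, edgeR and the TAIR10 genome, per the submitters' processing notes, which do not state the role of each. The FPKM values were used as deposited and no counts were rebuilt. A gene was tested where 3 or more of the 9 libraries reached 1 FPKM, which left 18232 of 33602 genes. Differences were tested with limma 3.58.1 in R 4.3.3 on log2(FPKM + 1), with 1 term per group over all 9 libraries, eBayes with trend and robust estimation, and Benjamini-Hochberg adjustment over all genes tested at 0.05; a fold change on this scale understates that of low genes. The code was tested on simulated data. Python 3.11.15 was used for tables (pandas 2.3.3, numpy 2.4.6) and plots (matplotlib 3.10.9).

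Gene positions and sequences are those of RefSeq TAIR10.1; the tables themselves carry gene identifiers only. The stretch before PSBO2 is not reported here. The members, the lists and the tests were chosen with earlier results of these data known. Values per library are given for members past the threshold, for the member of each role group with the largest change, the smallest change and the highest mean, and for families whose shares do not overlap. From the other lists the genes with the smallest adjusted p were named, with GLK1, GLK2 and HY5 always. LHCB3 was named after its values were seen.

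The replicate numbers pair OE2 with OE1: deviations from the group means correlated at 0.953, 0.959 and 0.957 between libraries of the same number, a link found in the data and not stated in the labels. The spread of OE2 over OE1 ratios in low genes, and the root marker sum without PRP3, were computed after seeing the data. Between either line and tt19-8 these correlations were between -0.059 and 0.043. Alternatives were another pseudocount, no filter, 2 scalings, fits of only the 2 groups compared, plain eBayes, replicate blocks and leaving out each library. 1 further alternative, only the 2 groups and without tt19-8 replicate 3, was chosen after seeing the data.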

Additional observations from a re-analysis of the deposited data

Results flagged for a closer look

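Without the replicate block, 0 members differed between OE2 and OE1 past the limma threshold, and 2 other genes of the pathway did. With the replicate number as a block and only these groups in the fit, 26 members passed (1 higher and 25 lower in OE2), as did 66.5% of all genes. DVR was higher in OE2 than in OE1 by 1.90 ± 0.18 on the log2 scale (limma adjusted p = 0.00073, higher in 3 of 3 same-numbered pairs), so its change against tt19-8 differed between the lines. LHCB1.1 was higher in OE2 than in OE1 by 1.21 ± 0.19 (limma adjusted p = 0.013, higher in 3 of 3 pairs). The DVR difference passed in all 17 alternatives that apply to this comparison. The LHCB1.1 difference passed in 13 of 17, with limma adjusted p between 0.0025 and 0.072. LHCB1.1 did not pass without OE1 replicate 1, without OE2 replicate 2 or 3, or with only these groups in the fit.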

How the results depend on the processing

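The count of members past the limma threshold in OE2 against tt19-8 was 2, and it was 0 without the filter on low values, 1 after median-ratio scaling, 1 with only the 2 groups compared, 2 in each fit with the replicate number as a block, and 0 to 7 when 1 library was left out. With only the 2 groups and without tt19-8 replicate 3, an alternative chosen after seeing the data, it was 10. In OE1 against tt19-8 the count was 0, with 0 to 6 when 1 library was left out and 7 in the added alternative. In OE2 against OE1 it was 0, and 0 when any 1 library was left out, but 26 with the replicate block and only the 2 groups compared. Some members passed in at least 1 fit. Of these, 0 of 10 in OE2 against tt19-8 and 0 of 8 in OE1 against tt19-8 changed sign between fits. In OE2 against OE1, 11 of 26 did, PSBY among them at -0.08 with the block and 0.17 with equal totals. Members were picked here for passing in some fit, and several fits cannot move a log2 change. The kept signs against tt19-8 are therefore largely fixed in advance. Over all genes, the count for OE2 against tt19-8 was 3467, with 1918 for equal totals, 738 to 5973 when 1 library was left out and 6074 in the added alternative. For OE1 against tt19-8 it was 3, with 0 for a pseudocount of 0.1, 0 with only the 2 groups compared, 16 and 5 with the replicate block over all libraries and over 2 groups, 0 to 3136 when 1 library was left out (3136 without tt19-8 replicate 3), and 1657 in the added alternative. For OE2 against OE1 it was 260, with 146 for a pseudocount of 0.1, 535 without the filter, 397 after median-ratio scaling, 592 for equal totals, 12118 with the replicate block and only the 2 groups compared, and 104 to 464 when 1 library was left out. The cause of these shifts was not tested. Replicate numbers do not pair either line with tt19-8, so the block is given there for completeness only; PSBR and PSAN passed in OE2 with the block over all libraries, and PSBR and PSBO2 with the block over 2 groups. Depth is unknown for OE2, so no counting error can be given there.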
